A study of Mus musculus with 6 samples.

Results

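The Hox cluster genes encode homeodomain transcription factors that lie in 4 clusters, Hoxa, Hoxb, Hoxc and Hoxd. Their members were taken as every gene symbol made of Hox, a cluster letter and a paralogue number, which gave 25 of the 19739 genes of the deposited table, and 24 of them are described. RefSeq names 39 such mouse genes, and the other 14 were not analysed here. Transcript levels were measured in cultured mouse stromal cells of the bone marrow (BMSCs), labelled as primary, that carried an adeno-associated virus (AAV) with FTO, the enzyme that removes m6A from RNA. One group of 3 libraries came from cells given the form of FTO labelled 3KR, and the group they were set against, also 3 libraries, from cells given the form labelled WT. Both groups overexpressed FTO from the vector, and cells without it were not analysed here. All 6 were input libraries of an m6A assay on poly(A) RNA, so they report transcript level and not methylation. The labels name neither the bone nor the mice the cells came from, nor the promoter of the vector, nor what distinguishes 3KR from WT beyond its name.

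Within a cluster, paralogue numbers follow the order of the genes along the chromosome. Low-numbered genes are switched on early and towards the head of the embryo, and high-numbered ones later and towards the tail and the ends of the limbs. Stromal and skeletal cells are known to keep the Hox pattern of the place where they arose, and much of the skeleton of the face and skull vault forms from Hox-free mesenchyme. In mice, Hoxa11 and its paralogues mark stromal progenitors of the middle limb segment, including those in adult marrow. Hox proteins bind DNA together with TALE cofactors (Pbx, Meis and Pknox), and their clusters are held silent by Polycomb complexes and kept active by Trithorax-group enzymes.

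The unit is FPKM, in which fragments are divided by the length of the transcript and the size of the library. No read counts could be recovered, so the depth is unknown, and a value of 0 means only that the gene is listed at 0. Markers of marrow stroma fitted the label of the cells, since 12 of 13 had a mean of 1 FPKM or more over the 6 libraries, with Col1a1 at 787 ± 20.4 FPKM in 3KR and 1785 ± 50.2 in WT (SD, n = 3 each). Of the 12 tested, 3 (25.0%) were called higher and 7 (58.3%) lower in 3KR, against 46.7% and 14.0% of all genes tested. Cxcl12, which had the smallest p of the list, was lower, at 70.3 ± 3.06 FPKM in 3KR and 409 ± 8.41 in WT. Ly6a was also lower, at 102 ± 8.25 in 3KR and 308 ± 1.65 in WT. The sum of the list, mostly Col1a1, ran from 1447 to 1478 FPKM in 3KR and from 2971 to 3099 in WT. The leptin receptor gene Lepr went the other way, at 16.9 ± 0.501 FPKM in 3KR and 3.68 ± 0.258 in WT, and so did Cd44, at 101 ± 1.65 in 3KR and 50.2 ± 2.22 in WT. Of 11 markers of blood cells in the table, 2 reached that level. In a population of cells, fewer cells of a type and less RNA per cell cannot be told apart. Whether replicates are separate cultures or mice is not stated, so every p-value here rests on a spread that may be technical.

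Hox transcripts were scarce in both groups. Of the 24 members only Hoxd8, or 4.17%, had a mean of 1 FPKM or more over the 6 libraries, against 55.0% of all 19739 genes. A further 10 members lay between 0.1 and 1 FPKM, and 13, or 54.2%, lay under 0.1, against 28.4% of all genes. The median member was at 0.0486 FPKM in 3KR and 0.0539 in WT, while the median of all genes was 1.80 in 3KR and 1.61 in WT. Altogether 10 members were above 0 in every library, 12 were listed at 0 in some libraries, and Hoxb8 and Hoxb13 were listed at 0 in all 6.

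Hoxd8, a trunk gene, ranked 10613th of all genes by mean FPKM, and Hoxb4, best known for promoting the self-renewal of blood stem cells, ranked 11118th. None of the 6 posterior members described, of paralogue numbers 9 to 13, had a value above 0.261 FPKM in any library. Most posterior genes, namely Hoxa9, Hoxa10, Hoxa13, Hoxc10, Hoxc11, Hoxc12, Hoxd10, Hoxd11, Hoxd12 and Hoxd13, were not analysed here. They include Hoxc11 and Hoxd11, the paralogues of Hoxa11, so the posterior pattern of these cells is not shown. Hoxa11 was listed at 0 in all 3 libraries of 3KR and in 2 of WT, and at 0.00167 FPKM in WT replicate 3. Hoxb9 and Hoxd9, genes of the rib cage and lumbar region, and Hoxc13, a gene of hair and nail, held most of the little signal of these 6. Hoxc9 had its only value above 0, 0.261 FPKM, in WT replicate 3.

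**Figure D1:**
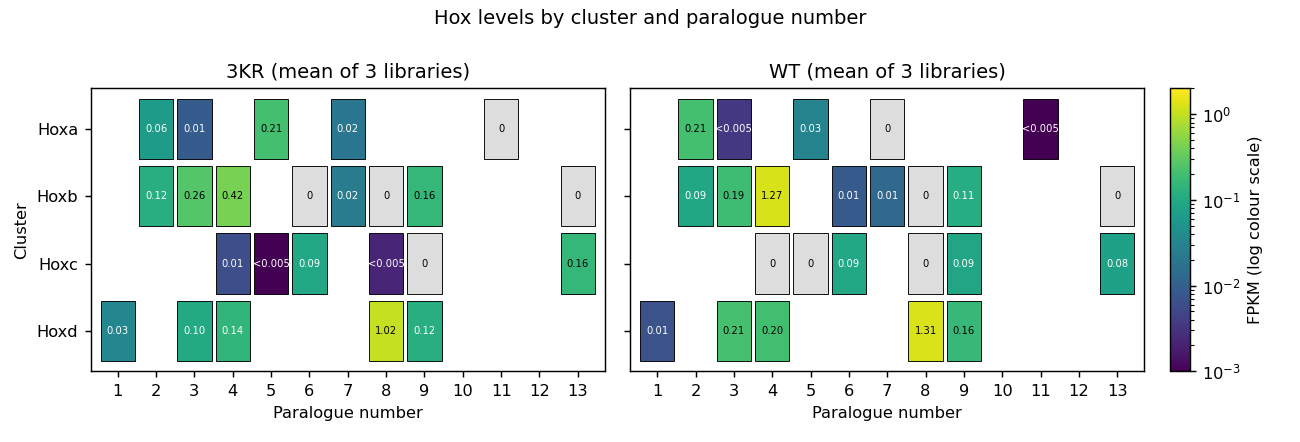
Mean FPKM of each Hox member by cluster (rows) and paralogue number (columns) in 3KR (left) and WT (right), 3 libraries each. Grey squares are listed at 0 in all 3 libraries, empty positions are not shown here or have no gene, and means under 0.001 have the darkest colour. Hoxd8 stands above 1 FPKM in both groups, at 1.02 in 3KR and 1.31 in WT, and Hoxb4 is at 0.419 in 3KR and 1.27 in WT.

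The genes next to the clusters showed that most of these chromosome regions held active neighbours. Skap2 and Hibadh, the nearest protein-coding genes with a row on the sides of Hoxa, were at 8.85 ± 0.503 and 57.8 ± 1.08 FPKM in 3KR and at 9.39 ± 0.0877 and 62.2 ± 3.76 in WT (SD, n = 3 each). Calcoco1 and Smug1 beside Hoxc were at 22.9 ± 0.880 and 1.25 ± 0.0361 in 3KR and at 19.8 ± 1.47 and 0.950 ± 0.0221 in WT. Lnpk1 and Mtx2 beside Hoxd were at 6.21 ± 0.719 and 3.67 ± 0.197 in 3KR and at 5.10 ± 0.677 and 3.78 ± 0.257 in WT. Hoxb differed in this respect. Its nearest neighbours were near 0, with Skap1 at 0.0166 FPKM in 3KR and 0.0154 in WT, and Ttll6 at 0.00101 in 3KR and 0 in WT.

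Promoters of 13 of the 24 members were found in the RefSeq table of mouse build GRCm38.p6. Each is 300 bases long, with 250 before and 50 after the annotated start. The 4 printed here belong to Hoxb4 and Hoxd8, the members that passed the filter on low values, and to Hoxa2 and Hoxa5, the members under 1 FPKM that moved in opposite directions (given with their values below). They lie at chr11:96318017-96318316 (+ strand) for Hoxb4, chr2:74704365-74704664 (+ strand) for Hoxd8, chr6:52164782-52165081 (- strand) for Hoxa2 and chr6:52204538-52204837 (- strand) for Hoxa5. Each is written 5′ to 3′ on the strand of its gene. Capitals mark matches to any of 5 motifs searched on both strands. These are the E-box CACGTG, the CCAAT box, the TATA box written as TATAAA, the GC box GGGCGG, and TGATNNAT, a word bound by Pbx and Hox proteins together. No matches overlap in the 4 windows.
Hoxb4: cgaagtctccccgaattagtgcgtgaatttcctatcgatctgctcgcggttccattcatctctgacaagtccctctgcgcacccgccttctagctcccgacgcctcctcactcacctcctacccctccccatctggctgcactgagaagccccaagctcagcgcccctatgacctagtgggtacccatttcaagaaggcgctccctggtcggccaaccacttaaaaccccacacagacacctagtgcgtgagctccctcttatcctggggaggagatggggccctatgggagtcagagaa
Hoxd8: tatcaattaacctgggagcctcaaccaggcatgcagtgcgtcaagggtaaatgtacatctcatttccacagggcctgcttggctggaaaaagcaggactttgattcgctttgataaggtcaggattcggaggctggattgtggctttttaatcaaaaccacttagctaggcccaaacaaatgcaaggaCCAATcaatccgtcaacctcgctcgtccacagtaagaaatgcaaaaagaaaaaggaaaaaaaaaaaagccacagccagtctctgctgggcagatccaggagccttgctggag
Hoxa2: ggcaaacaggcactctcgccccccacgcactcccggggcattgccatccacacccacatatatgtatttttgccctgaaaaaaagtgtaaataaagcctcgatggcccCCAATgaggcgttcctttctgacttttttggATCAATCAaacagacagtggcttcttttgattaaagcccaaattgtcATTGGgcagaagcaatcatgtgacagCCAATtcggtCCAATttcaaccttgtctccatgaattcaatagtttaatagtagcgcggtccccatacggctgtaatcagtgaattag
Hoxa5: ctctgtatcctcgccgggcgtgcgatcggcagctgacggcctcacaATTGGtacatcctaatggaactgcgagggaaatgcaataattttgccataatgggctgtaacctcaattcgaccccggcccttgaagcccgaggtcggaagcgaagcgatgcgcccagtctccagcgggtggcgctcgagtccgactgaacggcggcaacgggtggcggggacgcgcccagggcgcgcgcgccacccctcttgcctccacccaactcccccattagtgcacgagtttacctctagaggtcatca
CCAAT, the word bound by the factor NF-Y, was in the windows of 8 of the 13 members and in 37.4% of all 32841 promoters in the table. The Hoxa2 window held 4 copies, one of them on the opposite strand, and those of Hoxd8 and Hoxa5 held 1 each. TGATNNAT was in the windows of 2 members, Hoxa2 and Hoxb8, and in 8.85% of all promoters. GGGCGG was in those of 4 members and in 35.7% of all, TATAAA in those of 2 members and in 13.6% of all, and CACGTG in those of 2 members and in 7.15% of all. None of the 5 words was in the Hoxb4 window, which says only that these letters are not there. The members' windows had a median CpG frequency of 0.59 of that expected from their base composition, from 0.33 in Hoxc4 to 1.02 in Hoxa5, against a median of 0.38 over all promoters. The window of Hoxb8, listed at 0 in all libraries, had 0.97.

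The study's comparison is of 3KR with WT. It was fitted with limma on log2(FPKM + 1) over the 10985 genes that reached 1 FPKM in 3 or more libraries, and a gene was called at a Benjamini-Hochberg adjusted p under 0.05 over all of them. This scale understates the change of low genes. Of all genes tested 60.6% were called, 46.7% as higher in 3KR and 14.0% as lower. The log2 difference of the median tested gene was 0.15, so differences are also given against that gene. After median ratio scaling, which removes that shift, 2371 genes were called higher and 2645 lower, in place of 5127 and 1535. Of the members described 2 passed the filter, Hoxd8 through libraries of both groups and Hoxb4 through its 3 WT libraries alone.

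Hoxb4 was lower in 3KR. It had 0.700, 0.267 and 0.291 FPKM in the 3KR libraries and 1.48, 1.31 and 1.03 in the WT libraries. The highest 3KR library lay below the lowest WT library, and 3KR replicate 1 stood above the other two of its group. The mean was 0.419 ± 0.243 FPKM in 3KR and 1.27 ± 0.228 in WT (SD, n = 3 each), a level 3.03-fold lower in 3KR. The log2 difference was -0.69 ± 0.13 (SE) on the log2(FPKM + 1) scale, with a limma adjusted p of 0.00232, and -0.84 when set against the median gene. A member that passes the filter only through its higher group had to differ to be tested, so the fit without a filter bears on it more directly. There the difference was the same and the limma adjusted p was 0.0144. A two-sided exact permutation test gave p = 0.1, the smallest that 3 against 3 libraries can give.

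Most markers of blood cells were also lower in 3KR, as were most markers of some other lists. The mean was lower in 3KR for 9 of the 11 blood markers, against 6387 of all 19739 genes. It was lower too for 9 of the 13 stromal markers and 6 of the 8 neural or craniofacial genes described below. The summed level of the blood markers, mostly Mpeg1 and Cd34, ran from 2.88 to 4.17 FPKM in 3KR and from 11.96 to 13.2 in WT. Of the 3 that passed the filter, 2 were called lower, against 14.0% of all genes tested, and no blood marker was at 0 in all 6 libraries. Ptprc, the pan-leukocyte marker CD45, was at 0.0219 FPKM in 3KR, where 2 libraries were at 0, and at 0.119 in WT. Mpeg1, a macrophage pore-forming protein, was at 0.854 ± 0.361 FPKM in 3KR and 6.79 ± 0.288 in WT (SD, n = 3 each). Cd34, carried by blood progenitors, endothelium and some stromal cells, was at 1.24 ± 0.140 in 3KR and 2.78 ± 0.179 in WT. The blood markers were not uniform. Cd68 was tested and not called (limma adjusted p = 0.0836). Csf1r was at 0.221 ± 0.0260 in 3KR and 0.269 ± 0.0878 in WT, and was not called without a filter (limma adjusted p = 0.494). The 2 with a higher mean in 3KR were Kit, at 0.0813 in 3KR and 0.0545 in WT, and Cd79a, above 0 in a single 3KR library. Among 6 endothelial markers 4 had a lower mean in 3KR. The summed level of the 6 ran from 1.84 to 2.12 in 3KR and from 5.10 to 6.25 in WT. Most of it was the receptor gene Tek, at 1.46 ± 0.0818 in 3KR and 5.14 ± 0.531 in WT. Kdr went the other way, at 0.335 ± 0.0930 in 3KR and 0.139 ± 0.0878 in WT, and Tie1 was at 0 in every library. The part of these cells in the level of Hoxb4 was not tested.

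Hoxd8 was near 1 FPKM in both groups. It had 1.08, 0.936 and 1.05 FPKM in the 3KR libraries and 1.36, 1.14 and 1.44 in the WT libraries, so the groups did not overlap. Its log2 difference was -0.19 ± 0.08 (SE), with a 95% interval of -0.37 to -0.01, and it was not called (limma adjusted p = 0.0599). Set against the median gene it was -0.34, and Hoxd8 was called lower after rescaling to the same sum (limma adjusted p = 0.0327), median ratio scaling (0.0187) and quantile normalization (0.0165). Whether Hoxd8 differed thus depended on the scaling. It was also called when WT replicate 2, its lowest WT library, was left out (0.0358) and without the intensity trend (0.0311).

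**Figure D2:**
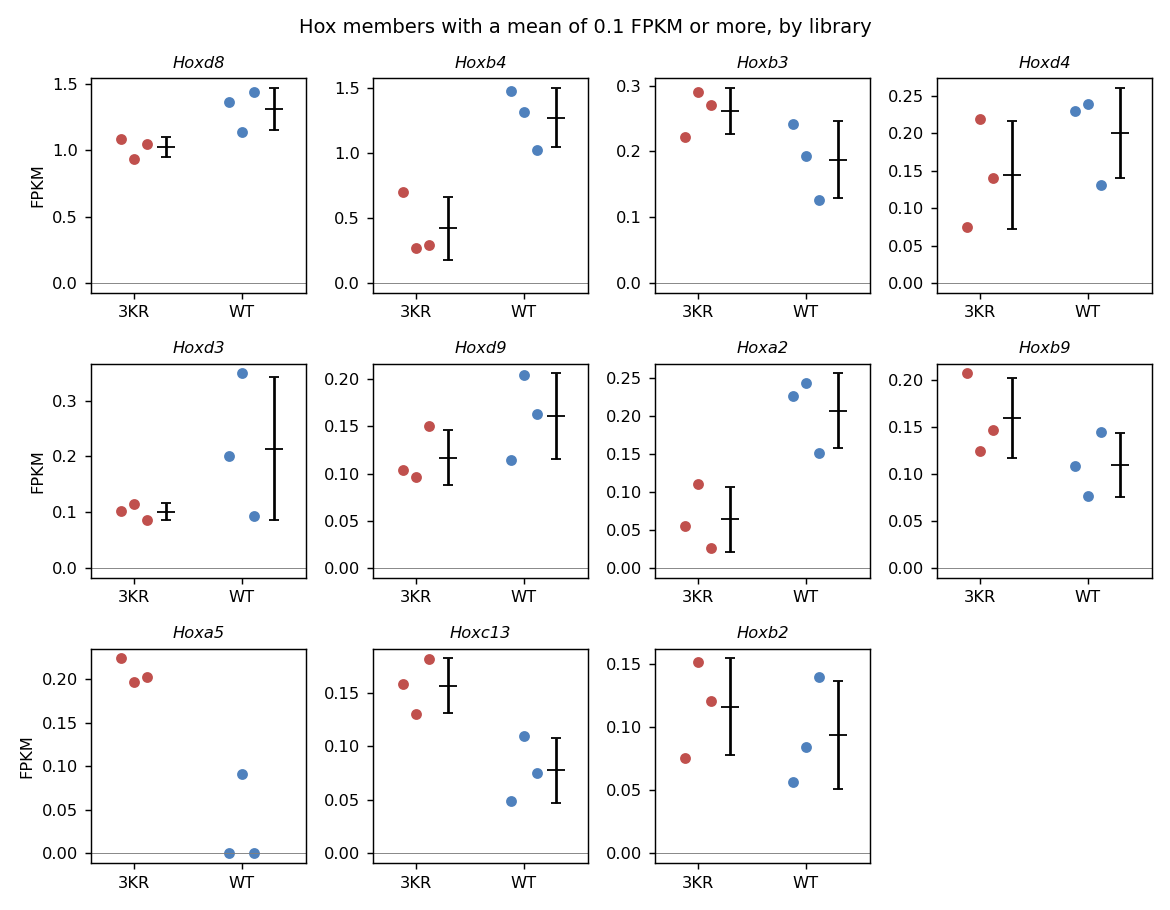
FPKM (vertical axes from 0, a scale of its own for each gene) of the 11 described Hox members with a mean of 0.1 FPKM or more, in 3KR (left) and WT (right). Points are libraries in the order of replicates 1 to 3, and bars give the mean and SD of 3 libraries, left out for Hoxa5, which is listed at 0 in 2 WT libraries. The groups are separate for Hoxb4, Hoxd8 and Hoxa2, lower in 3KR, and for Hoxa5 and Hoxc13, higher in 3KR.

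The members under 1 FPKM did not move together. Hoxa5, which patterns the lung and the neck and upper chest skeleton, had 0.224, 0.197 and 0.203 FPKM in the 3KR libraries, against 0, 0.0907 and 0 in the WT libraries. Every 3KR library was above every WT library. Hoxa2, the gene that sets the identity of the second pharyngeal arch, had 0.0554, 0.110 and 0.0262 FPKM in 3KR and 0.227, 0.244 and 0.151 in WT, and here every 3KR library was below every WT library. Hoxc13 had 0.158, 0.130 and 0.181 FPKM in 3KR and 0.0484, 0.109 and 0.0749 in WT, again without overlap. These levels are a small part of 1 FPKM, at an unknown depth.

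Over all 22 members above 0 in some library, the groups were separate for 5, or 22.7%, with 2 higher and 3 lower in 3KR. Among all 19026 such genes the groups were separate for 47.1%, with 34.7% higher and 12.3% lower, and among the genes that passed the filter for 66.7%, with 51.2% higher and 15.5% lower. The fairer comparison is with genes of a like level. Of the 21 members with a mean above 0 and under 1 FPKM, 4 were separate, or 19.0%, against 21.1% of the 8168 genes in that range. In that range 2 members were higher and 2 lower, where 12.7% of genes were higher and 8.36% lower. The share of separate members was thus near that of other scarce genes.

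Without a filter, limma called 4 of the 22 members, or 18.2%, where 35.4% of all genes were called, 26.2% as higher and 9.25% as lower. Hoxa5 (adjusted p = 0.00712) and Hoxc13 (0.0379) were higher in 3KR, and Hoxb4 (0.0144) and Hoxa2 (0.0227) were lower. The same 4 were all among the 21 members under 1 FPKM, a share of 19.0% against 12.6% of all genes in that range, 7.65% as higher and 4.98% as lower. A fit better suited to low levels, chosen after seeing the data, kept genes with a mean of 0.1 FPKM or more and took log2(FPKM + 0.1). It tested 11 members and called 3, 1 higher and 2 lower, where 50.1% of the 14139 genes tested were called, 37.9% higher and 12.2% lower. Hoxa5 differed by 1.31 ± 0.37 on this scale (limma adjusted p = 0.0206), Hoxa2 by -0.93 ± 0.33 (0.0479) and Hoxb4 by -1.48 ± 0.31 (0.00592), each with its SE. Hoxc13 was not called there, at 0.54 ± 0.30 (0.171). Hoxa5, Hoxa2 and Hoxc13 reach a mean of 0.1 FPKM only through their higher group. The lower group was at 0.0302 in WT for Hoxa5, 0.0640 in 3KR for Hoxa2 and 0.0775 in WT for Hoxc13. Their p-values in this fit are limited by that, and the fit without a filter bears on them more directly. The median difference of the 11 members was -0.26, against 0.17 for all genes in that fit.

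**Figure D3:**
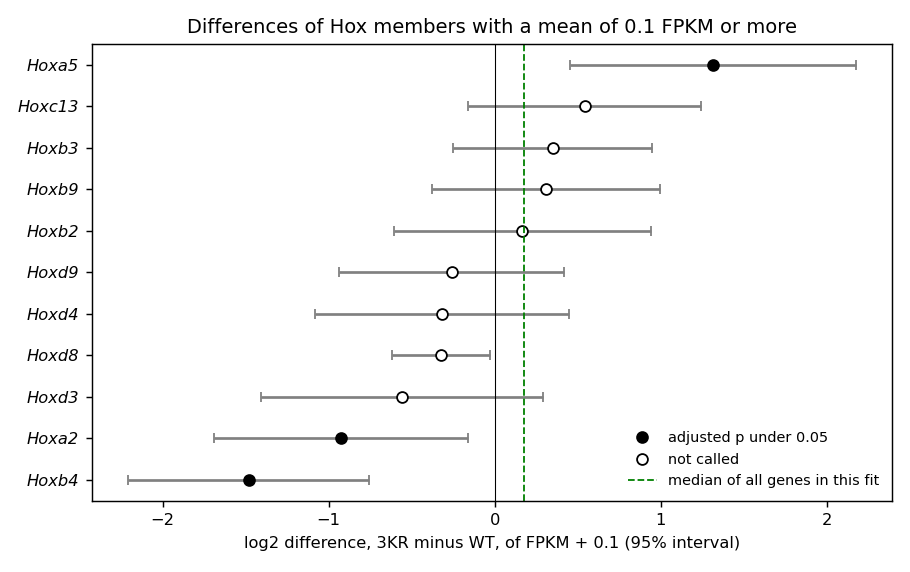
Log2 difference between 3KR and WT of FPKM + 0.1 (horizontal axis, points with 95% intervals from limma) for the 11 described Hox members with a mean of 0.1 FPKM or more. Filled points had an adjusted p under 0.05 over all genes in this fit. Hoxb4 and Hoxa2 lie below 0 and Hoxa5 above, 8 intervals are of members not called, and the dashed line marks the median of all genes, 0.17.

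Among the other members of this range Hoxb3 and Hoxb9 had higher means in 3KR, and Hoxd3, Hoxd4 and Hoxd9 lower means, none of them called in either fit. Hoxb3, a hindbrain and pharyngeal gene, had 0.222, 0.290 and 0.271 FPKM in 3KR and 0.242, 0.194 and 0.125 in WT. Hoxd3, which shapes the first neck vertebrae, had 0.102, 0.116 and 0.0862 in 3KR and 0.200, 0.349 and 0.0932 in WT, and most of its spread came from WT replicate 2. Both pairs of groups overlapped. The intervals were wide, for Hoxd3 from -1.41 to 0.29 on the log2(FPKM + 0.1) scale, so neither a difference nor its absence was shown. Hoxd4 ranged from 0.0751 to 0.219 FPKM in 3KR and from 0.131 to 0.240 in WT, and Hoxd9 from 0.0959 to 0.15 in 3KR and from 0.114 to 0.205 in WT. Hoxb9 ranged from 0.124 to 0.207 in 3KR and from 0.0761 to 0.144 in WT, and Hoxb2, a hindbrain gene, from 0.0756 to 0.152 in 3KR and from 0.0562 to 0.140 in WT.

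The remaining 13 members had means under 0.1 FPKM. Hoxc6 was the highest of them, from 0.0333 to 0.214 FPKM in 3KR and from 0 to 0.167 in WT. Hoxb7, Hoxd1, Hoxa3 and Hoxa7 each had a library above 0 in 3KR and at least 2 WT libraries at 0, with no value above 0.0778. Hoxc4, Hoxc5 and Hoxc8 were above 0 in 1 library of 3KR each and in no WT library, and Hoxb6 in 1 WT library alone. Of these 9 members, Hoxc6 was above 0 in 5 libraries and Hoxb7 in 4, while 4 were above 0 in a single library.

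By cluster, the summed FPKM of Hoxb members was lower in 3KR, from 0.852 to 1.22, against 1.44 to 1.88 in WT. Hoxb4 alone carried this. Without it the other Hoxb members summed higher in 3KR, to 0.524, 0.597 and 0.560 FPKM, against 0.407, 0.417 and 0.41 in WT, and the groups did not overlap. The sum of Hoxd members ran from 1.37 to 1.44 in 3KR and from 1.84 to 1.93 in WT, and without Hoxd8 the groups overlapped, from 0.359 to 0.430 in 3KR and from 0.408 to 0.793 in WT. Hoxa overlapped between the groups, from 0.270 to 0.354 in 3KR and from 0.153 to 0.345 in WT, and so did Hoxc, from 0.188 to 0.373 in 3KR and from 0.109 to 0.454 in WT. By paralogue number, the members of group 4 summed to 0.431 to 0.775 FPKM in 3KR and to 1.16 to 1.71 in WT. That gap too was Hoxb4, since Hoxc4 and Hoxd4 together ran from 0.0751 to 0.237 in 3KR and from 0.131 to 0.240 in WT. The central members, numbers 4 to 8, summed to 1.74 to 2.32 in 3KR and to 2.71 to 3.23 in WT, and without Hoxb4 they overlapped, from 1.47 to 1.62 in 3KR and from 1.53 to 1.76 in WT. The anterior members, numbers 1 to 3, overlapped between groups, from 0.533 to 0.680 in 3KR and from 0.531 to 0.881 in WT, and so did the posterior ones, from 0.351 to 0.478 in 3KR and from 0.271 to 0.645 in WT.

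The sum of the 24 members was 2.96 ± 0.312 FPKM in 3KR and 4.08 ± 0.174 in WT (SD, n = 3 each), and the groups did not overlap. Most of that gap was Hoxb4. Without it the sums ran from 2.49 to 2.62 FPKM in 3KR and from 2.75 to 2.86 in WT. Without Hoxb4 and Hoxd8 the other 22 members summed to 1.45 to 1.57 in 3KR and 1.39 to 1.67 in WT, and the groups overlapped. Shares of this sum do not depend on the scaling between libraries. The share of Hoxb4 ran from 9.64% to 21.1% in 3KR and from 26.4% to 34.9% in WT, without overlap. That of Hoxd8 overlapped, from 32.7% to 37.6% in 3KR and from 27.6% to 37.0% in WT. A lower share of Hoxb4 leaves more to the other members, which together held 78.9% to 90.4% in 3KR and 65.1% to 73.6% in WT. The overlap therefore does not show that Hoxd8 was unchanged.

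**Figure D4:**
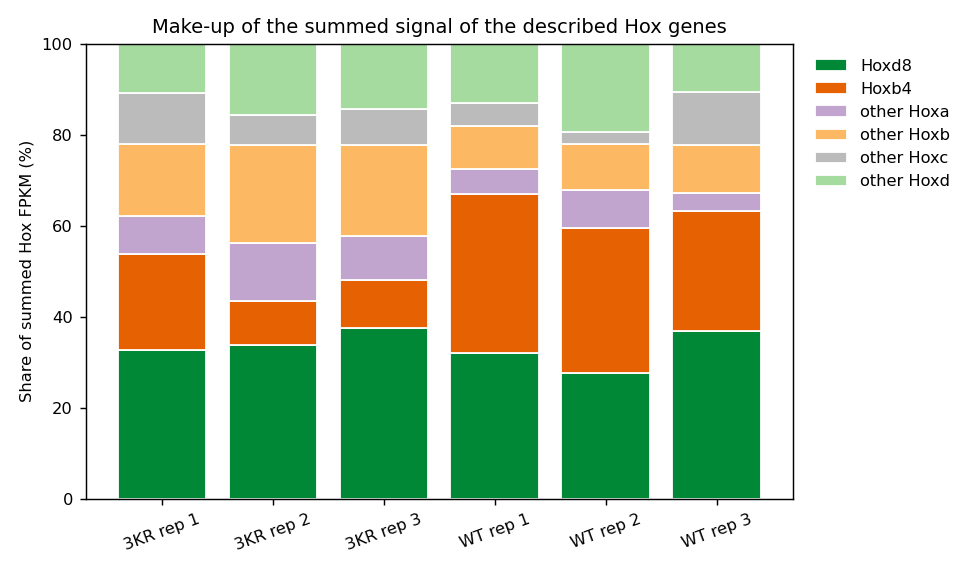
Share of the summed FPKM of the 24 described Hox members (vertical axis, percent) held by Hoxd8, Hoxb4 and the other members of each cluster, in each of the 3 libraries of 3KR (left) and WT (right). The Hoxb4 band is 9.64% to 21.1% in 3KR and 26.4% to 34.9% in WT, while the Hoxd8 band overlaps between the groups.

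Noncoding transcripts of the clusters were also scarce. Hoxb3os, a noncoding RNA that RefSeq places over Hoxb3 and Hoxb2, had 0.311, 0.227 and 0.0705 FPKM in 3KR and 0.858, 0.759 and 0.521 in WT. The groups did not overlap, and it was called lower without a filter (limma adjusted p = 0.0152) and in the fit for low levels, at -1.49 ± 0.35 (limma adjusted p = 0.0102). Hotairm1, a noncoding RNA of the Hoxa cluster, was at 0.889 ± 0.217 FPKM in 3KR and 0.692 ± 0.0631 in WT (SD, n = 3 each). Hoxd3os1 was at 0.200 ± 0.134 in 3KR and 0.320 ± 0.0816 in WT, and Hoxaas2 at 0.0632 ± 0.0378 in 3KR and 0.0894 ± 0.0109 in WT. Haglr was at 0 in 1 library of 3KR and 2 of WT, while Hoxaas3, Hoxa11os and Mir196a-1 were above 0 in a single 3KR library each. In RefSeq 13 of the 24 members overlap another gene. Hoxb4 lies within the span of Hoxb3, Hoxd4 within that of Hoxd3, and Hoxa5 within that of Hoxa3. Neither the counting of reads over such overlaps nor the use of strand is given in the sources used here. Reads of such neighbours may have been shared, and the values of Hoxb4, Hoxa5 and Hoxb3os are uncertain to that extent. Hoxa5 and Hoxa3 lie on the same strand, as do Hoxd4 and Hoxd3, so use of strand would not separate those pairs.

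For the gene lists that follow, calls are set beside those of all 10985 genes tested, of which 46.7% were higher and 14.0% lower in 3KR on the deposited scale, and 21.5% and 13.9% under all 4 scalings compared. These lists were chosen with earlier results of the same data known, so their shares are a description and not a test. Of the further genes listed around the clusters, 12 were tested. On the deposited scale 5 (41.7%) were higher and 3 (25.0%) lower in 3KR, and 1 (8.33%) and 3 (25.0%) under all 4 scalings. Nfe2l1, a stress-response transcription factor gene on the Hoxb side, was at 149 ± 1.55 FPKM in 3KR and 198 ± 1.38 in WT (SD, n = 3 each), a log2 difference of -0.41 (limma adjusted p = 1.109e-05). Snx11, a sorting nexin on the same side, was at 7.0 ± 0.267 in 3KR and 5.47 ± 0.225 in WT, and Jazf1, near Hoxa, at 0.918 ± 0.0620 in 3KR and 1.40 ± 0.0295 in WT. Tax1bp1, near Hoxa, was called higher by 0.15, which is the shift of the median gene, and the sign turned after median ratio scaling, to -0.01.

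The cofactors of Hox proteins were abundant next to the Hox genes themselves. Of 8 TALE genes described 7 were tested, and the 8 had a median level of 3.16 FPKM over the 6 libraries. In 3KR 2 (28.6%) were higher and 2 (28.6%) lower, against 46.7% and 14.0% of all genes, and 1 (14.3%) and 2 (28.6%) were so under all 4 scalings, against 21.5% and 13.9%. Pknox2 was at 13.6 ± 0.444 FPKM in 3KR and 25.0 ± 0.520 in WT (SD, n = 3 each), 1.84-fold lower in 3KR (limma adjusted p = 1.627e-06). Meis1, which works with posterior Hox proteins and in blood stem cells, was at 1.30 ± 0.0290 in 3KR and 1.73 ± 0.0657 in WT and was called lower (limma adjusted p = 0.00889). Meis2 was called higher, at 2.55 ± 0.0423 in 3KR and 1.86 ± 0.0674 in WT (limma adjusted p = 0.00192). Pbx2 was called higher on the deposited scale and under none of the other 3 scalings, at 11.9 ± 0.413 in 3KR and 10.2 ± 0.646 in WT (limma adjusted p = 0.0130). The median log2 difference of the 7 was 0.02, against 0.15 for all genes tested.

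Polycomb and Trithorax-group genes were well expressed. Of 28 Polycomb genes tested, 15 (53.6%) were higher and 1 (3.57%) lower in 3KR, against 46.7% and 14.0% of all genes. Under all 4 scalings 6 (21.4%) were higher and 1 lower, against 21.5% and 13.9% of all genes, and the median difference was 0.15, the same as that of all genes. Ezh2, the H3K27 methyltransferase, was at 21.5 ± 1.03 FPKM in 3KR and 14.6 ± 0.585 in WT (SD, n = 3 each; limma adjusted p = 6.256e-05). Its partner Suz12 was at 12.4 ± 0.781 in 3KR and 9.27 ± 0.335 in WT, and the accessory subunit Aebp2 at 10.02 ± 0.110 in 3KR and 7.04 ± 0.186 in WT. Rbbp7, a histone-binding subunit, was at 37.8 ± 1.17 in 3KR and 31.1 ± 0.289 in WT. All 4 were called higher under all 4 scalings.

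Of 19 Trithorax-group activators and H3K27 demethylases, all tested, 15 (78.9%) were higher in 3KR, against 46.7% of all genes, and the other 4 were not called. Under all 4 scalings 5 (26.3%) were higher, against 21.5% of all genes, and the median difference was 0.27. Kmt2a, the methyltransferase MLL1 that maintains Hox expression, was at 131 ± 1.40 FPKM in 3KR and 99.0 ± 5.66 in WT (SD, n = 3 each; limma adjusted p = 1.333e-04). Mllt3, a fusion partner of MLL in leukaemia, was 2.41-fold higher, at 7.11 ± 0.276 in 3KR and 2.95 ± 0.0898 in WT. Kmt2d was at 213 ± 6.68 in 3KR and 162 ± 5.90 in WT, and Kmt2b at 32.5 ± 0.825 in 3KR and 25.0 ± 0.937 in WT.

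Retinoic acid is a classic inducer of anterior Hox genes, and 12 regulators upstream of the clusters were tested. In 3KR 7 (58.3%) were higher and 3 (25.0%) lower, against 46.7% and 14.0% of all genes. Under all 4 scalings 3 (25.0%) were higher and 3 (25.0%) lower, against 21.5% and 13.9% of all genes. Cyp26b1, which breaks retinoic acid down, was at 19.1 ± 1.29 FPKM in 3KR and 1.105 ± 0.0782 in WT (SD, n = 3 each), and the receptor gene Rarg at 63.5 ± 1.82 in 3KR and 48.6 ± 1.13 in WT. Aldh1a1, which makes retinoic acid, was lower, at 36.4 ± 1.80 in 3KR and 51.0 ± 3.06 in WT. Gmnn, the replication inhibitor geminin, which also restrains Hox activity, was at 5.93 ± 0.869 in 3KR and 3.37 ± 0.461 in WT. Aldh1a2, the main enzyme of retinoic acid synthesis in the embryo, was under the filter, at 0.244 ± 0.0533 in 3KR and 0.761 ± 0.0355 in WT.

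Other patterning genes differed from Hox genes in level. Of 33 T-box and homeobox genes listed for their role in patterning limb, skull and trunk, 15, or 45.5%, had a mean of 1 FPKM or more, against 1 of 24 Hox members. Of the 15 tested, 6 (40.0%) were higher and 5 (33.3%) lower in 3KR, all of them under all 4 scalings, where 21.5% of all genes were higher and 13.9% lower. Alx4, a gene of the skull and the front of the limb bud, was at 121 ± 4.02 FPKM in 3KR and 64.4 ± 0.953 in WT (SD, n = 3 each), and Msx2, of the skull sutures and limb, at 165 ± 1.41 in 3KR and 91.0 ± 3.39 in WT. Prrx2, of limb and facial mesenchyme, was at 48.4 ± 4.67 in 3KR and 20.9 ± 0.726 in WT, and Tbx15, of the shoulder girdle, skull and skin, at 19.8 ± 0.277 in 3KR and 30.8 ± 1.31 in WT. Tbx4, a hindlimb gene, was at 0.136 ± 0.0567 in 3KR and 0.133 ± 0.0605 in WT, and Hand2 was listed at 0 throughout.

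Among 8 genes listed for neural or craniofacial tissue that lacks Hox expression, Alx1, of the facial skeleton, passed the filter and was not called, at 5.20 ± 0.292 FPKM in 3KR and 5.59 ± 0.451 in WT (SD, n = 3 each; limma adjusted p = 0.292). The neural crest gene Sox10 was at 0.0637 in 3KR and 0.246 in WT, and Foxd3 at 0.00748 in 3KR and 0.132 in WT. Dlx5 went the other way, at 0.625 ± 0.0539 in 3KR and 0.303 ± 0.00682 in WT. It was called higher without a filter (limma adjusted p = 0.00129). Otx2, Pax3, Pax6 and Pou3f2 were each under 0.1 FPKM in every library. Of these, Pou3f2 had a higher mean in 3KR, at 0.0344 against 0.00306 in WT. The summed level of the list ran from 5.61 to 6.16 FPKM in 3KR and from 5.79 to 6.63 in WT.

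**Figure D5:**
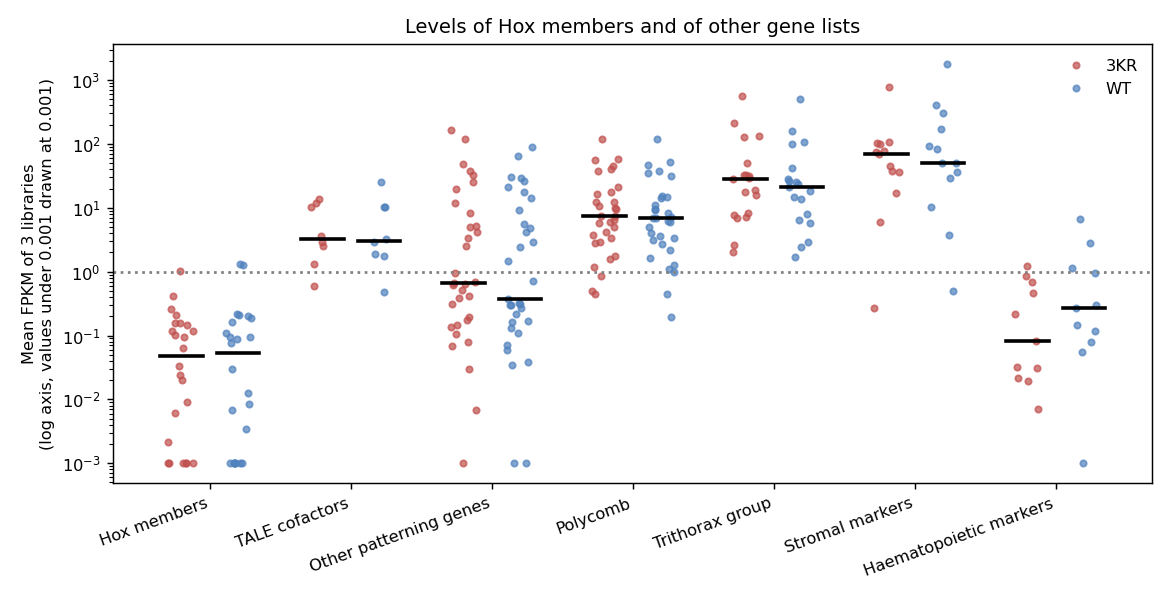
Mean FPKM over 3 libraries (vertical log axis) of each gene in 7 lists, 3KR on the left and WT on the right of each pair, with the median as a bar and values under 0.001 drawn at 0.001. The median Hox member is at 0.0486 in 3KR and 0.0539 in WT, while the medians of the TALE, Polycomb and Trithorax lists all lie above 3 FPKM.

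Genes reported elsewhere as targets of Hox proteins in limb, kidney or stroma moved in both directions. Of 15 tested, 8 (53.3%) were higher and 6 (40.0%) lower in 3KR, all 14 under all 4 scalings, where 21.5% of all genes were higher and 13.9% lower. Sox9, the cartilage transcription factor, was at 30.8 ± 0.439 FPKM in 3KR and 9.95 ± 0.612 in WT (SD, n = 3 each), and Itga8, an integrin chain, at 15.9 ± 0.601 in 3KR and 4.22 ± 0.461 in WT. Bmp4 was at 16.1 ± 1.92 in 3KR and 63.5 ± 0.650 in WT, and Tgfbr2, a TGF-beta receptor, at 67.1 ± 0.532 in 3KR and 105 ± 2.24 in WT. The list was drawn from general knowledge, with earlier results of these data known, and is not a set of targets measured in these cells. Its shares therefore do not test whether Hox proteins act on these genes.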

How the data were processed

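The values deposited by the authors are FPKM for each gene in each library, per the file headers. No aligner, quantifier or annotation is named in the sources used here, and the build in the submitters' processing notes is GRCh38, a human assembly, although the organism and symbols are mouse. RefSeq tables of GRCm38.p6 were used for names, gene order and promoters. Of 19763 rows, 24 repeated a name, and of each such name the highest row by mean was used. The most frequent ratio between 2 libraries among genes under 2 FPKM held for no more than 10 of 5669 genes, and no read counts could be recovered. All genes were fitted with limma 3.58.1 in R 4.3.3 (empirical Bayes, intensity trend). The fit was also run on values simulated for genes that passed the 1 FPKM filter, which does not bear on members under it.

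The members and gene lists were chosen with earlier results of these data known. The rule for names took every member, up to 4 tested genes of each list with the smallest p, and listed genes inside a cluster. Aldh1a2, Tbx4, Hand2, Sox10, Otx2, Pax3, Pax6, Pou3f2, Ptprc, Tie1, Cd44 and the nearest neighbours of the clusters were named after their values were seen. So were Dlx5, Foxd3, Kit, Csf1r, Cd79a and Kdr. Further Hox members were likewise given by library after their values were seen. A few genes are not reported here, and counts of members and lists leave them out. The 4 scalings were the deposited one, the same sum, median ratio and quantile normalization. Other alternatives were the pseudocount, 2 filters, a replicate block, no intensity trend, each library left out, and the fit for low levels.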

Additional observations from a re-analysis of the deposited data

How the results depend on the processing

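Hoxb4 passes the 1 FPKM filter only through its WT libraries, so alternatives that keep that filter do not bear on its stability. In the fits that avoid it Hoxb4 was called lower, with a limma adjusted p of 0.0144 without a filter and 0.00592 in the fit for low levels. The filter of 5 FPKM left no Hox member to test, so 0 were called there. Leaving out each library in turn, with the 1 FPKM filter kept, gave log2 differences of -0.25 to -0.15 for Hoxd8. Those for Hoxb4 were -0.82 to -0.61 and, for the reason given, do not bear on its stability. Hoxd8 crossed the threshold at -0.24 with the same sum, -0.28 with median ratio scaling, -0.29 with quantile normalization and -0.19 without the intensity trend. The count of Hox members called lower was 1, and was 2 without a filter, under each of the 3 other scalings, without the intensity trend and in the fit for low levels, and 1 to 2 with a library left out (2 without WT replicate 2). The count called higher was 0 by limma, also at an unadjusted p under 0.05, and was 2 without a filter, 1 in the fit for low levels and 0 to 0 with a library left out. Both members that pass the 1 FPKM filter were lower in 3KR, so fits that keep it could hardly call any member higher. Over all genes, 5127 called higher became 2371 under median ratio scaling and 3138 under quantile normalization, and 1535 called lower became 2645 under median ratio scaling. Of 58 genes of the context lists called higher, 30 were under median ratio scaling. Leaving out a library gave 4328 to 5164 genes higher and 1386 to 1474 lower, and 51 to 59 and 15 to 17 in those lists. Tax1bp1 turned to -0.0143 under median ratio scaling. Of 37 named genes of the lists, 33 kept their direction and side of the threshold in every alternative.

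No sign of pairing by replicate number was seen: same-numbered deviations correlated at -0.0147, 0.0295 and -0.0338. Differently numbered ones ran from -0.0603 to 0.0788. Such values do not settle whether the design was paired. With the numbers as a replicate block, which leaves differences as they are in this balanced design, Hoxd8 was at -0.19 (limma adjusted p = 0.0671) and the count of Hox calls was the same. Most members lie under 0.1 FPKM at an unknown depth. Causes of these shifts were not tested.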
